A study of Mus musculus with 6 samples.

Results

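The interferon response genes described here were 9 genes that cells transcribe after exposure to interferons. Irf1, Gbp2 and Gbp3 are induced most strongly by interferon-gamma, and Irf7, Ifit1, Ifit2, Ifit3, Isg15 and Rsad2 by type I interferons. The genes were given by name, and each was read from 1 probe set, the one brightest on average over the 6 arrays among those that the array's gene table pairs with its symbol and no other. That gave values for 8 of the 9 genes, of 18193 genes on the array. Isg15, the ubiquitin-like modifier, had no such probe set, because the one that lists it also lists Gm9706, so it has no value here. The 8 measured genes had 11 probe sets in all, and each of the 8 genes was above the detection floor, the 40th percentile of its array, on all 6 arrays.

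The arrays came from 2 populations of mouse lung cells, each with 3 samples labelled as biological replicates and 1 Affymetrix 3' expression array per replicate. The adult arrays held cells carrying Lyz2 and EpCAM, taken by the series as alveolar type II cells, which secrete surfactant. The E18 arrays held cells carrying Muc1 and Pdpn sorted at embryonic day 18, taken as bipotent progenitors of the alveolar epithelium. No treatment, infection or genetic change is named in the labels for either group, which also do not give the strain, the age of the adult animals or whether animals were pooled. Age and sorted population changed together, and in sorted pools fewer cells of a type and less RNA per cell cannot be told apart.

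Sftpc, the surfactant protein gene that marks type II cells, was bright on all 6 arrays, at log2 signals of 14.67, 14.50 and 14.52 in the adult replicates and 14.05, 13.90 and 14.17 in the E18 replicates. The 5 type II markers on the array, Sftpc among them, had a median log2 difference, adult minus E18, of -0.05. It was -0.81 for replicates 1 and 2 and 1.00 for replicate 3. Of the 5 markers 2 had a positive difference and 0 were called, where 5.98% of all genes tested were called in either direction. Lyz2, the lysozyme gene by which the adult cells were labelled, was above the detection floor on all adult arrays but lower there than in the E18 arrays. It averaged 11.28 ± 0.15 in the adult arrays, against 14.15 ± 0.12 in the E18 arrays (SD, n = 3 each, difference -2.86, limma adjusted p = 0.00303). Pdpn, a label of the E18 cells, was lower in the adult arrays (difference -2.27, adjusted p = 0.00924), while Muc1 (-2.07, adjusted p = 0.206) and Epcam (-1.41, adjusted p = 0.359) did not pass. Mesenchyme and endothelium markers were higher in the E18 arrays. The 5 mesenchyme markers summed to 27687 to 40914 in the E18 arrays, against 1657 to 8077 in the adult arrays. The 5 endothelium markers summed to 12592, 13513 and 2747 in the E18 arrays, against 1389 to 2375 in the adult arrays. At a limma adjusted p under 0.05, 5 and 2 of them were lower in the adult arrays, where 4.57% of all genes tested were. Arrays within a group also differed in their marker signals. Adult replicates 1 and 2 had a summed signal of 4 epithelial genes (Epcam, Cdh1, Krt8 and Krt18) of 2887 and 3108, against 41050 in adult replicate 3, while the E18 arrays held 15854 to 22702. Replicate 3 of both groups also had higher poly-A spike-in signals than replicates 1 and 2 (medians of 14.34 in adult and 13.89 in E18, against 6.42 to 9.63 on the other arrays), a difference that no label names. The members and the pathway lists are therefore also described for replicates 1 and 2 and for replicate 3 separately.

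Type I interferons signal through the receptor chains Ifnar1 and Ifnar2 to transcription factors that bind the interferon-stimulated response element (ISRE). Interferon-gamma signals through Ifngr1 and Ifngr2 to factors that bind the gamma-activated site (GAS), and its early product Irf1 is itself a transcription factor that binds ISRE-like sequences. Both kinds of gene are transcribed at low levels in unstimulated tissue and rise on exposure to virus, to interferons or in activated immune cells.

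The start sites of the members were searched for both elements, since these are the elements through which each interferon type is known to act. The promoter windows are those of RefSeq on the build GRCm38.p6, 300 bases long, with 250 bases before the annotated start and 50 after it, and all 9 members matched by symbol. The ISRE was searched as GAAA, any 2 bases and GAAA again, or TTTC, any 2 bases and TTTC on the other strand, and the GAS as TTCNNNGAA, which reads the same on both strands. An ISRE match lay in a window of 6 of the 9 members (Gbp2, Gbp3, Ifit1, Ifit3, Isg15 and Rsad2), against 3.99% of 27025 genes. A GAS match lay in a window of 2 members (Irf1 and Ifit2), against 9.55% of genes, and Irf7 held neither pattern. The 160 bases that end just before the start are shown 5′ to 3′ for the measured members with a match in them, with the matches in capitals. A match is a sequence description and does not show that a factor was bound.
Gbp2, chr3:142620503-142620662, plus strand: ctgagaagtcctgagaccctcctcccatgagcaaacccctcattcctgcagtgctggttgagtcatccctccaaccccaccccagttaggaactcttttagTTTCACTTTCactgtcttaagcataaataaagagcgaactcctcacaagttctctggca
Gbp3, chr3:142559884-142560043, plus strand: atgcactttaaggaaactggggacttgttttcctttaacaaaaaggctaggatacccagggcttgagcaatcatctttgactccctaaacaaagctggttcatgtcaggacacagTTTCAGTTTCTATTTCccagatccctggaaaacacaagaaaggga
Irf1, chr11:53769854-53770013, plus strand: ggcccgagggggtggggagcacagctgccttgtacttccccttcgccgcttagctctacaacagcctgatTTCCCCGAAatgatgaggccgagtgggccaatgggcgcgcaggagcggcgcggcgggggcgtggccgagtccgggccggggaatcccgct
Ifit1, chr19:34640729-34640888, plus strand: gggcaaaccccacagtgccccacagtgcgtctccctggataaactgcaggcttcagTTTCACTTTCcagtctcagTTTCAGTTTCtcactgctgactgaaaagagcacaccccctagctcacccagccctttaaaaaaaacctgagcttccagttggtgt
Ifit3, chr19:34583369-34583528, plus strand: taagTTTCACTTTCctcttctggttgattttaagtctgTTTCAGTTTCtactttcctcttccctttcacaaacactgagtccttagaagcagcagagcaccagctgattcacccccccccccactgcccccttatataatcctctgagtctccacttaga
Rsad2, chr12:26456453-26456612, minus strand: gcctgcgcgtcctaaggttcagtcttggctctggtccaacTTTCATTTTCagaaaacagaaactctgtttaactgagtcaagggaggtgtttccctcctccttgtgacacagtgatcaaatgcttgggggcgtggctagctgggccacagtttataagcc
The capitals in Irf1 are the GAS match, 90 bases before the start, and those in the other windows are ISRE matches. Gbp2 had 1 match, 59 bases before the start. Gbp3 had 2 overlapping ones, which run together in capitals and begin 45 and 39 bases before the start. Ifit1 had 2 separate ones, beginning 104 and 85 bases before the start, and Ifit3 also had 2, beginning 156 and 122 bases before it. Rsad2 had 1, beginning 120 bases before the start.

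Of the 8 measured genes, 1 rose in the adult arrays, 0 fell and 7 did not pass, at an adjusted p under 0.05 in limma with Benjamini-Hochberg adjustment over the 13335 genes tested. Over all genes tested 5.98% were called in either direction, 1.41% higher and 4.57% lower in the adult arrays. At an unadjusted p under 0.05 the call was again 1 member, where 21.6% of all genes passed. The gene that rose was Gbp2. The median difference of the 8 genes, adult minus E18 on the log2 scale as for every difference given here, was 0.47, and that of all genes tested was -0.17. Under quantile normalization the median of the 8 genes was 0.50 and that of all genes -0.05, and with each array centred on its median they were 0.62 and -0.02.

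Among the interferon-gamma targets, Gbp2 was higher in every adult array than in any E18 array, and Gbp3 and Irf1 overlapped between the groups. Gbp2 encodes a guanylate-binding protein, a large GTPase that acts on vacuoles holding intracellular pathogens. Its log2 signal was 12.58, 12.04 and 11.18 in adult replicates 1, 2 and 3, and 9.35, 9.35 and 10.19 in E18 replicates 1, 2 and 3. Replicate 3 of each group was the closest to the other group, and the groups were still separated. Gbp2 averaged 11.93 ± 0.70 in the adult arrays, against 9.63 ± 0.49 in the E18 arrays (SD, n = 3 each), a 4.92-fold difference (log2 2.30, SE 0.44, 95% interval 1.28 to 3.32, limma adjusted p = 0.0268). Such separation in this direction was seen for 10.1% of all genes tested, and the opposite separation, which 0 members had, for 18.8%. Replicates 1 and 2 differed by 2.96 and replicate 3 by 0.98. The call ended when adult replicate 1 (adjusted p = 0.0638), adult replicate 2 (0.105), E18 replicate 1 (0.142) or E18 replicate 2 (0.141) was left out, and the difference stayed between 1.98 and 2.67 whichever array was left out.

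Gbp3, a second guanylate-binding protein of the same gene cluster, had log2 signals of 10.88, 10.70 and 9.59 in the adult arrays, against 10.03, 9.97 and 9.59 in the E18 arrays. Adult replicates 1 and 2 stood above all E18 arrays and replicate 3 was the same in both groups to 2 decimals. The difference of Gbp3 was 0.53 (95% interval -0.41 to 1.46, limma adjusted p = 0.498). Irf1, the transcription factor named above, had log2 signals of 13.61, 12.67 and 11.87 in the adult arrays, against 12.86, 12.95 and 11.62 in the E18 arrays. Replicate 3 was the lowest array of both groups for Irf1, and its difference was 0.23 for replicates 1 and 2, close to 0.25 for replicate 3. Over all arrays it came to 0.24 (95% interval -1.01 to 1.48, adjusted p = 0.834), and it turned to -0.095 after quantile normalization.

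**Figure D1:**
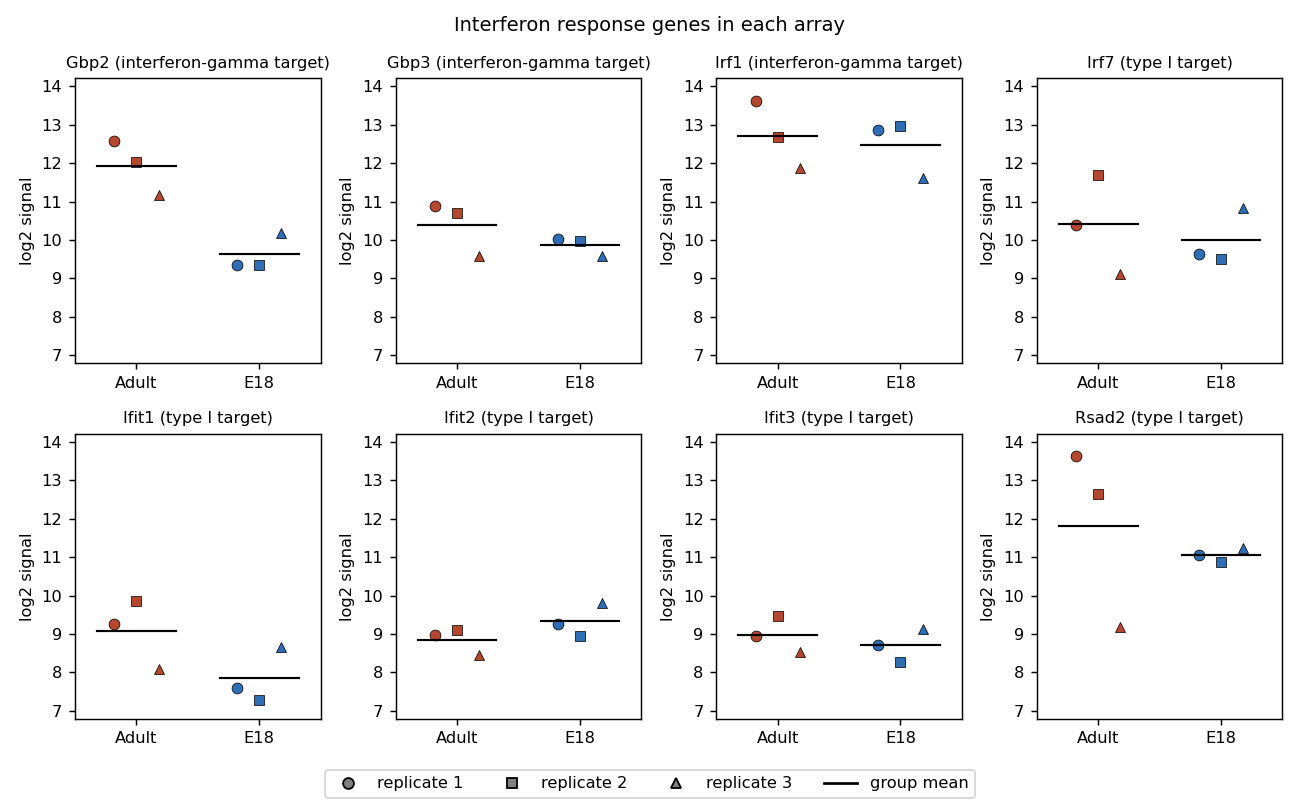
Log2 signal of the 8 measured interferon response genes in each array, adult left and E18 right, with a symbol for each replicate number and a line at the group mean. The Gbp2 arrays of the groups do not overlap, with adult arrays from 11.18 to 12.58 and E18 arrays from 9.35 to 10.19, and the other 7 genes overlap.

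No type I target passed in either direction over all arrays. Rsad2 encodes viperin, an enzyme of the endoplasmic reticulum that makes a chain-terminating nucleotide. Its log2 signal was 13.64, 12.64 and 9.17 in adult replicates 1, 2 and 3, and 11.06, 10.87 and 11.25 in the E18 replicates. Adult replicates 1 and 2 were above every E18 array and adult replicate 3 was below every one. The adult arrays had an SD of 2.34 for Rsad2, which 2.84% of the genes tested reached, and the E18 arrays one of 0.19. The difference of Rsad2 was 0.76 (95% interval -1.61 to 3.12, limma adjusted p = 0.712).

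Ifit1, Ifit2 and Ifit3 encode cytoplasmic proteins with tetratricopeptide repeats that bind viral RNA or support its sensing. Ifit1 had log2 signals of 9.27, 9.87 and 8.09 in the adult arrays, against 7.61, 7.28 and 8.65 in the E18 arrays. Only E18 replicate 3 and adult replicate 3 overlapped for Ifit1, and its difference of 1.23 had an interval from -0.09 to 2.54 (adjusted p = 0.26). Ifit3 had log2 signals of 8.96, 9.48 and 8.52 in the adult arrays, against 8.71, 8.28 and 9.12 in the E18 arrays. Its difference was 0.28 (95% interval -0.62 to 1.18, adjusted p = 0.722), with the groups interleaved. Ifit2 was the one member with a negative difference, at log2 signals of 8.97, 9.11 and 8.46 in the adult arrays, against 9.25, 8.94 and 9.82 in the E18 arrays. The groups overlapped, and the difference of -0.49 had an interval from -1.34 to 0.35 (adjusted p = 0.483).

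Irf7, the transcription factor that amplifies type I interferon production, had log2 signals of 10.40, 11.69 and 9.12 in the adult arrays, against 9.64, 9.51 and 10.84 in the E18 arrays. Adult replicate 3 was its lowest array and E18 replicate 3 its highest E18 array. The difference of Irf7 was 0.41 (95% interval -1.15 to 1.97, adjusted p = 0.769).

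Most type I targets went opposite ways in replicates 1 and 2 and in replicate 3. Their difference was positive in replicates 1 and 2 and negative in replicate 3 for 4 of the 5 measured type I targets, a pattern seen in 16.3% of all genes tested. For Rsad2 the differences were 2.17 and -2.07, for Ifit1 2.12 and -0.56, for Irf7 1.47 and -1.72, and for Ifit3 0.72 and -0.60. Ifit2 was lower in both, by differences of -0.06 and -1.36. None of the 3 interferon-gamma targets turned in this way. Replicate 3 is 1 adult array against 1 E18 array and has no test of its own.

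The replicate 3 arrays of both groups took part in that turn. Adult replicate 3 was the lowest adult array for 8 of the 8 measured members, type I and interferon-gamma targets alike, where 29.3% of all genes tested had their lowest adult value there. E18 replicate 3 was the highest E18 array for 6 members, Gbp2 and the 5 type I targets, where 38.1% of genes had their highest E18 value there. Both held for the same 6 members and for 11.5% of genes. Adult replicates 1 and 2 averaged 3.97 above adult replicate 3 for Rsad2, a gap that 0.49% of genes reached, with gaps of 1.93 for Irf7 and 1.48 for Ifit1. The smallest gap among the 8 members was that of Ifit2, at 0.58.

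With adult replicate 3 left out, 3 of the 8 members were called higher, where 5.26% of all genes were called higher and 15.5% lower. Ifit1 had a difference of 1.72 (limma adjusted p = 0.0398) and Rsad2 one of 2.08 (adjusted p = 0.00986), beside Gbp2 at 2.67 (adjusted p = 0.00489). The same 3 passed in replicates 1 and 2 alone, where 6.01% of all genes were called higher and 16.5% lower. With replicate 3 of both groups as a batch term Gbp2 was the only member called (adjusted p = 0.0373). The settings on replicates 1 and 2 alone and on the batch term were chosen after the arrays had been seen to differ.

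**Figure D2:**
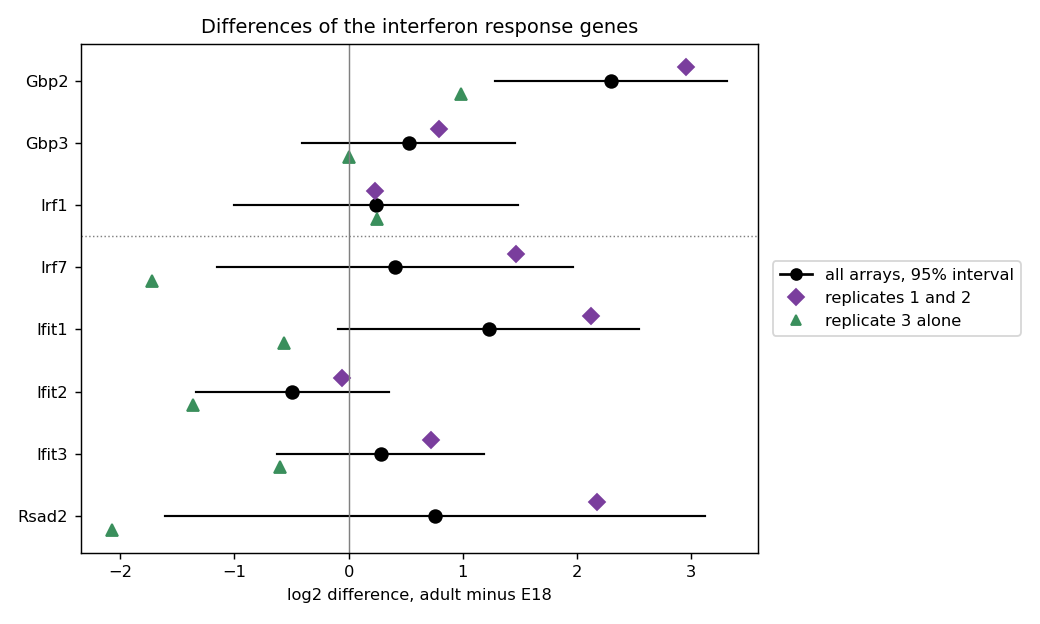
Log2 difference, adult minus E18, of each measured member, with interferon-gamma targets above the dotted line and type I targets below it. Black points with 95% intervals are over all arrays, diamonds over replicates 1 and 2 and triangles the single pair of replicate 3. The type I targets other than Ifit2 have diamonds right of 0 and triangles left of it, as for Rsad2 at 2.17 and -2.07.

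To set the interferon-gamma targets against the type I targets, each gene was expressed as its departure from its own mean over the 6 arrays and averaged within its class. The interferon-gamma targets stood at 1.19, 0.63 and -0.29 in the adult arrays, against -0.42, -0.41 and -0.70 in the E18 arrays, so every adult array was above every E18 array. Without Gbp2 they overlapped, at 0.88, 0.32 and -0.63 in the adult arrays, against 0.08, 0.10 and -0.75 in the E18 arrays. The type I targets stood at 0.64, 0.95 and -0.94 in the adult arrays, against -0.35, -0.63 and 0.33 in the E18 arrays, with adult replicate 3 the lowest of all. The class difference, interferon-gamma minus type I, averaged 0.29 ± 0.53 in the adult arrays, against -0.29 ± 0.65 in the E18 arrays (SD, n = 3 each). Its change between groups was 0.59, close to the spread between arrays of a group, and the arrays overlapped. Replicates 1 and 2 gave 0.04 and replicate 3 gave 1.67. No p is given for these averages, since they are scores over a chosen set.

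Markers of some blood cells moved with the type I targets from array to array. The summed signal of 4 neutrophil markers (S100a8, S100a9, Csf3r and Cxcr2), each above the floor on all arrays, was 120909, 74013 and 4436 in the adult arrays, against 20221, 17252 and 57924 in the E18 arrays. Adult replicate 3 was thus the lowest of all arrays and E18 replicate 3 the highest of the E18 arrays, as for the type I targets. The 6 macrophage and monocyte markers, also above the floor on all arrays, summed to 63505, 48109 and 26915 in the adult arrays, against 31442, 28514 and 41344 in the E18 arrays. A sum weights genes by their signal, and only Csf1r and Ccr2, 2 of the 6, had a positive difference, while the list's median difference was -0.33. The median departure of the 6 genes from their own means was -1.03, 0.36 and 0.11 in the adult arrays, against 0.09, -0.06 and 0.46 in the E18 arrays. By that measure adult replicate 1 was the lowest array, so the macrophage and monocyte list did not follow the type I targets, whereas the neutrophil list did, at 1.96, 1.90 and -2.56 in the adult arrays, against -1.32, -1.45 and 0.98 in the E18 arrays. For these 2 lists 0 genes passed in either direction, and their part in the levels of the type I targets was not tested.

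Lymphocyte markers differed from the neutrophil markers in that every adult array was above every E18 array, as for Gbp2. Within the groups, adult replicate 3 still had the lowest adult sum in each list of this paragraph. E18 replicate 3 had the highest E18 sum in each of them but the natural killer list. The 5 T cell markers on the array summed to 6823, 6219 and 1043 in the adult arrays, against 181, 228 and 247 in the E18 arrays, and 5 of the 5 were above the floor on all adult arrays but 0 on all E18 arrays. Of these 5, the T cell surface proteins Cd2 and Cd28 were called higher. Over all genes tested 1.41% were called higher, the share to set beside each list of this paragraph. The 4 natural killer markers summed to 41550, 37308 and 2903 in the adult arrays, against 546, 581 and 505 in the E18 arrays, with 2 called higher. The 4 B and plasma cell markers summed to 29676, 34952 and 26838 in the adult arrays, against 520, 528 and 1968 in the E18 arrays, with 1 called higher. A sum weights genes by their signal, and the median difference of these 4 genes was 5.64 in replicates 1 and 2 but 0.37 in replicate 3. The groups overlapped for general leukocyte markers, which were Ptprc, Cd52 and Coro1a and summed to 87064, 56993 and 34173 in the adult arrays, against 22619, 19810 and 35321 in the E18 arrays, with 0 called. Whether these cells account for any of the Gbp2 signal was not tested.

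**Figure D3:**
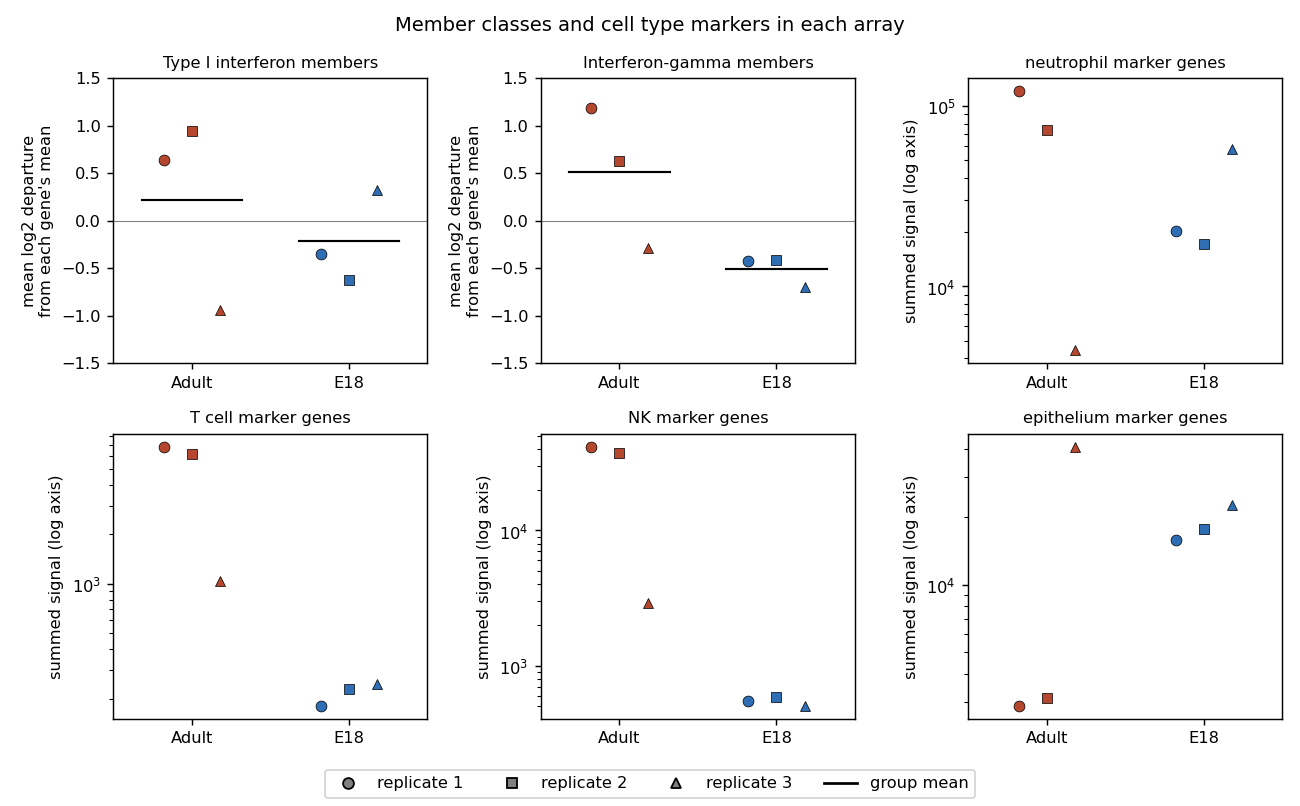
Upper left and centre, mean departure of the type I and the interferon-gamma members from each gene's mean (log2), with lines at group means; other panels, summed linear signal of marker genes on log axes, adult left and E18 right, 1 symbol per replicate. Neutrophil markers have the same low adult array (4436) and high E18 array (57924) as the type I members, while the T cell and NK markers are higher in all adult arrays, and epithelial markers are highest in adult replicate 3 (41050).

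Other probe sets of the same genes allow a check of the signals. The main probe set of Gbp2, 1435906_x_at, carries a suffix that Affymetrix gives where some probes may match related sequences, and guanylate-binding protein genes are close relatives. The other Gbp2 probe set, 1418240_at, read 10.09, 10.83 and 10.16 in the adult arrays, against 8.80, 8.90 and 9.49 in the E18 arrays. In it adult replicate 1, not replicate 3, was the lowest adult array. It also separated the groups, with a smaller difference of 1.30, and with both probe sets averaged the difference was 1.80 (limma adjusted p = 0.0267). Rsad2 had 3 probe sets. The second probe set, 1421009_at, read 11.11, 11.41 and 8.24 in the adult arrays, against 8.55, 8.27 and 9.72 in the E18 arrays. The third probe set, 1421008_at, read 7.33, 7.79 and 6.42 in the adult arrays, against 6.27, 6.38 and 7.89 in the E18 arrays. Adult replicate 3 was the lowest adult array in all 3, and the differences were 0.76, 1.40 and 0.33.

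**Figure D4:**
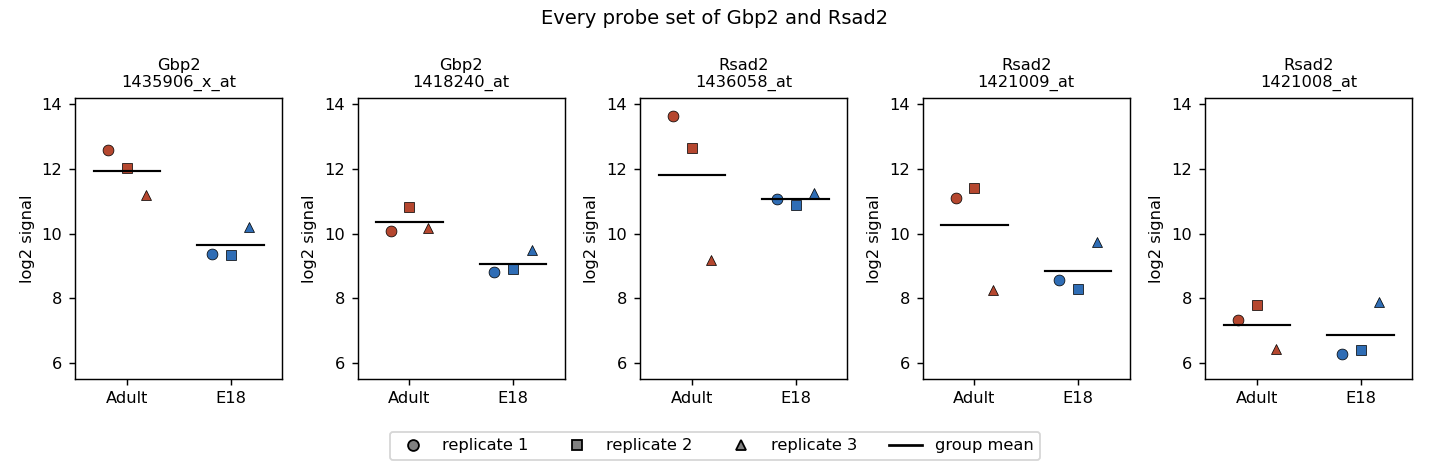
Log2 signal of the 2 probe sets of Gbp2 and the 3 of Rsad2 in each array, adult left and E18 right, with lines at group means. Both Gbp2 probe sets separate the groups, and in each Rsad2 probe set adult replicate 3 is the lowest adult array.

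The other genes of the pathway were read by role, beginning with the ligands. Beside the counts of each list, 1.41% of all genes tested were called higher over all arrays and 4.57% lower. Of 9 ligand genes 5 were on the array and 3 were tested, of which 1 rose. That was Ifng, the gene of interferon-gamma, which T cells and natural killer cells secrete. Ifng had log2 signals of 9.46, 8.77 and 6.36 in the adult arrays, against 4.79, 3.61 and 2.73 in the E18 arrays, under the floor in all 3 E18 arrays. The difference was 4.48 (SE 0.91, limma adjusted p = 0.0331). With the E18 arrays set to the floor it was at least 5.15-fold higher in the adult arrays, and that floored difference did not pass (adjusted p = 0.108). The call on the signals as measured ended when any array other than adult replicate 3 was left out (adjusted p from 0.0857 to 0.137) and after quantile normalization (0.0515). Ifng differed by 4.91 in replicates 1 and 2 and by 3.63 in replicate 3. The order of the adult arrays, replicate 3 lowest, was also that of the T cell and natural killer markers. Ifnb1, the type I ligand interferon-beta, was above the floor on 3 adult arrays and 1 E18 array and did not pass. Its log2 signals were 6.05, 5.78 and 6.14 in the adult arrays, against 5.66, 5.38 and 6.13 in the E18 arrays (difference 0.27, adjusted p = 0.779).

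Receptors and the relay to the nucleus did not pass over all arrays. Of 6 receptor genes 0 were called, and the median difference was 0.23, with 0.52 for replicates 1 and 2 and 0.02 for replicate 3. Il10rb, a chain of the interferon-lambda receptor, differed by 0.82 (adjusted p = 0.276), by 1.32 in replicates 1 and 2 and by -0.17 in replicate 3. In replicates 1 and 2 alone it passed (limma adjusted p = 0.0478), where 6.01% of all genes were called higher. Without adult replicate 3 Il10rb did not pass (limma adjusted p = 0.143), and 1 other receptor gene was called higher, where 5.26% of all genes were. In the JAK-STAT relay 5 genes were tested, all with positive differences, and 0 were called. The median was 0.45, with 0.83 for replicates 1 and 2 and 0.24 for replicate 3. The kinase Jak2, which acts below the interferon-gamma receptor, read 12.46, 11.46 and 12.45 in the adult arrays, against 10.12, 10.28 and 11.07 in the E18 arrays (difference 1.64, adjusted p = 0.0593, 0.0359 with each array centred on its median, and 1.03 with adjusted p = 0.294 with probe sets averaged). The groups did not overlap for Jak2, which differed by 1.77 in replicates 1 and 2 and by 1.38 in replicate 3. Jak2 passed in replicates 1 and 2 alone (limma adjusted p = 0.0390) and with replicate 3 of both groups as a batch term (0.0420).

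Among 6 other IRF factors 5 were tested and 1 rose, where 1.41% of all genes tested did. The median was 1.34, with 1.36 for replicates 1 and 2 and 1.11 for replicate 3. Irf4, a factor of lymphocytes and dendritic cells, had log2 signals of 8.77, 9.61 and 10.40 in the adult arrays, against 6.38, 6.81 and 7.09 in the E18 arrays, a 7.13-fold difference (limma adjusted p = 0.0189). Unlike the members, Irf4 was highest in adult replicate 3. The dendritic cell markers had that order too, with summed signals of 2384, 4552 and 10565 in the adult arrays, against 872, 761 and 1573 in the E18 arrays, and their part in Irf4 was not tested. The Irf4 call ended without adult replicate 2 (adjusted p = 0.0801), E18 replicate 1 (0.11) or E18 replicate 2 (0.0969), and with probe sets averaged (difference 1.55, adjusted p = 0.0667). Of 14 nucleic acid sensors and adaptors 0 were called, and the median was 0.11 (-0.01 after quantile normalization). Replicates 1 and 2 gave a median of 0.47 and replicate 3 one of -0.58, opposite signs as for the type I targets. In replicates 1 and 2 alone 2 of the 14 were called higher and 1 lower, where 6.01% of all genes were called higher and 16.5% lower. Tbk1, a kinase that activates IRF factors, differed by 0.21 (adjusted p = 0.724), by -0.011 after quantile normalization and by -0.35 with probe sets averaged.

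Of 31 other type I targets 27 were tested, of which 2 rose, 0 fell and 25 did not pass. Of all genes tested 1.41% rose and 4.57% fell. The count called higher was 9 without adult replicate 3 and 9 in replicates 1 and 2 alone, 1 without adult replicate 1 or E18 replicate 3, and 0 without adult replicate 2, E18 replicate 1 or E18 replicate 2. The calls over all 13335 genes changed too. Those higher numbered 701 without adult replicate 3 and 801 in replicates 1 and 2 alone. They numbered 121 without adult replicate 1 and 111 without E18 replicate 3. Without adult replicate 2, E18 replicate 1 or E18 replicate 2 they numbered 44, 24 and 24. The median was 0.40. Isg20, an exonuclease that degrades viral RNA, rose 3.86-fold (11.19 ± 0.48 in the adult arrays, against 9.24 ± 0.33 in the E18 arrays, SD, n = 3 each, limma adjusted p = 0.0238). Ifi35, an interferon-induced leucine zipper protein, rose 3.25-fold (13.92 ± 0.55 in the adult arrays, against 12.22 ± 0.20 in the E18 arrays, adjusted p = 0.0307). Both were also higher in the adult array of replicate 3, by 1.18 for Isg20 and 1.51 for Ifi35. Replicates 1 and 2 gave a list median of 0.80 and replicate 3 one of -0.40, the same turn as in the type I members, whose medians were 1.47 and -1.36. For all genes tested the same medians were -0.32 and 0.01. Ifitm2, a membrane protein that restricts virus entry, had the list's largest difference but did not pass, at 14.68, 13.58 and 11.53 in the adult arrays, against 11.18, 10.80 and 11.59 in the E18 arrays (2.07, adjusted p = 0.155). Isg20 lost its call without adult replicate 1, adult replicate 2, E18 replicate 1 or E18 replicate 2 (adjusted p from 0.0579 to 0.142). Ifi35 lost its call without adult replicate 2 or any 1 E18 array (0.0916 to 0.149), with each array centred on its median (0.0535) and with probe sets averaged (0.0579).

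Of 23 other interferon-gamma targets 13 were tested, of which 1 rose, 0 fell and 12 did not pass, where 1.41% of all genes tested rose and 4.57% fell. The median was 0.09. The gene that rose was Cxcl9, a chemokine that draws activated T cells. It had log2 signals of 8.05, 6.85 and 8.62 in the adult arrays, against 5.24, 4.94 and 4.63 in the E18 arrays, under the floor in all 3 E18 arrays (difference 2.90, SE 0.56, limma adjusted p = 0.0277). With the E18 arrays set to the floor it was at least 4.03-fold higher in the adult arrays (adjusted p = 0.0488). Its call ended without adult replicate 1 or any 1 E18 array (adjusted p from 0.0775 to 0.131). With probe sets averaged its difference was 4.15 (limma adjusted p = 0.00724). With the filter raised to the 60th percentile Cxcl9 was not tested, and 0 of the list's 11 tested genes were called. Replicates 1 and 2 gave a list median of 0.01 and replicate 3 one of 0.20, so it did not show the turn of the type I targets. Of 7 negative regulators 6 were tested and 0 were called, and the median was 0.24 (-0.04 with probe sets averaged), with 0.32 for replicates 1 and 2 and -0.005 for replicate 3. Socs3, a suppressor of JAK signalling, differed by 0.37 (adjusted p = 0.601), by -0.14 after quantile normalization and by -0.17 with probe sets averaged.

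**Figure D5:**
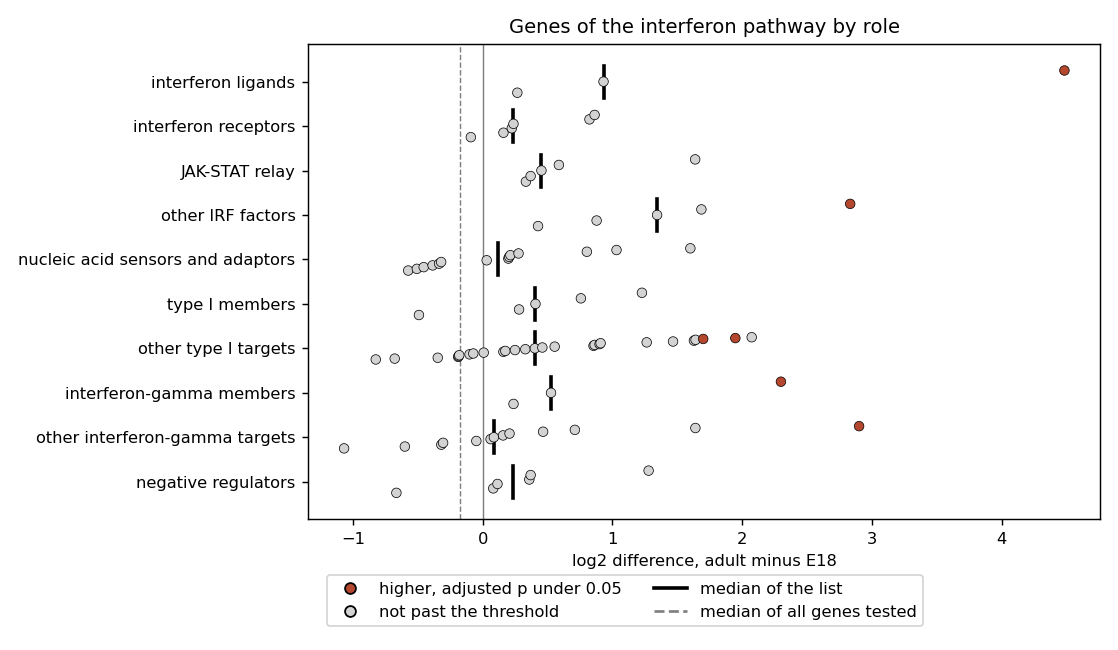
Log2 difference, adult minus E18, of each tested gene of the interferon pathway, grouped by role, with black bars at list medians and a dashed line at the median of all genes tested (-0.17). Coloured points passed at an adjusted p under 0.05, and they are Ifng, Irf4, Isg20, Ifi35, Gbp2 and Cxcl9, all higher in the adult arrays.

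The genes whose profile over the 6 arrays was most like that of Gbp2 were Ptpn18 (Pearson's r = 0.998), a tyrosine phosphatase, S100a4 (r = 0.996), a calcium-binding protein, and Ptgir (r = 0.995), the prostacyclin receptor. S100a4 read 14.27, 14.08 and 13.11 in the adult arrays, against 11.39, 11.28 and 12.07 in the E18 arrays. Those most like the mean of the type I targets were Pla2g7 (r = 0.996), a secreted phospholipase that acts on platelet-activating factor, Mmp9 (r = 0.995), a gelatinase, and Cmklr1 (r = 0.993), the chemerin receptor. Mmp9 read 12.58, 13.33 and 8.58 in the adult arrays, against 9.99, 9.70 and 12.12 in the E18 arrays, with a low adult and a high E18 array in replicate 3, as for the type I targets. These are the highest of 13335 genes over only 6 arrays, and the arrays within a group share their sort label, so they are given as a description.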

How the data were processed

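Total RNA from FACS-purified cells was amplified in 2 cycles, labelled with biotin and hybridized, per the labels' protocols. The deposited values are linear signal intensity per probe set, and the submitters' processing notes name MAS5 and Affymetrix Expression Console. Trimmed means, without the lowest and highest 2% of values, were nearly equal on the 6 arrays, so no further scaling was applied, and values were log2 transformed with no pseudocount. Arrays give no counts, and their number limits the precision. The floor is a percentile, so it says nothing of measured background.

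Of 45101 probe sets, 34945 were paired with 1 gene symbol and 932 with several, which named no gene. Each gene took its brightest probe set, and 13335 genes at or above the 40th percentile on at least 3 arrays were tested with limma 3.58.1 (R 4.3.3, intensity trend, two-sided). The fit was tested on simulated data, with 50 genes changed at each size. It called 2% of changes of log2 size 1, 32% of size 2, 70% of size 4 and 86% of size 6. Of 100 calls 5 were false. The simulated noise was independent between arrays, so it held no shared departure of the replicate 3 arrays. The labels call the replicates biological but name no animals or pools. The p-values set each group difference against the spread between these arrays within a group. Named genes were the 9 members, up to 3 called genes per list or else its brightest, and the 3 profiles most like Gbp2 or the mean of the type I targets, taken over the 5 measured because Isg15 had no value. The values of Ifnb1, Ifitm2, S100a4 and Mmp9 and the marker genes named singly were chosen after their values were seen. The members and lists were chosen with earlier results of these data known.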

Additional observations from a re-analysis of the deposited data

How the results depend on the processing

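Of the members, 1 was called higher, and the count was 0 with a replicate block, 0 to 3 when single arrays were left out and 3 in replicates 1 and 2 alone. It stayed at 1 under the 8 planned settings of scaling, filter, floor, probe sets, variance prior and pseudocount, and with replicate 3 of both groups as a batch term. No member was called lower in any setting. The Gbp2 difference was 2.30 with the replicate block (adjusted p = 0.0721), under which Isg20 (0.0578), Ifi35 (0.0568) and Cxcl9 (0.0595) also lost their calls. Same-numbered arrays did not deviate together (correlations of 0.04, -0.14 and -0.06 across genes), so the numbers were not taken as pairs. Calls over all genes numbered 798, with 492 under the block, and from 66 without E18 replicate 2 to 2770 without adult replicate 3, and 2996 in replicates 1 and 2 alone. The class difference of 0.59 ranged from 0.22 to 0.89 when arrays were left out. Irf1 turned to -0.095 after quantile normalization. With single arrays left out, Irf1 ranged from -0.21 to 0.66, Irf7 from -0.24 to 1.05 and Rsad2 from -0.15 to 2.08. After quantile normalization and with probe sets averaged, Tbk1 was -0.011 and -0.35 and Socs3 -0.14 and -0.17. None of these reversed values passed. The causes were not tested. With 3 arrays a group the intervals of the other 7 members are wide, so differences within them may have been missed.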
